A study of Mus musculus with 7 samples.

Results

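The set described here is 39 genes that carry a signal from a Gq-coupled receptor through calcium to the phosphatase calcineurin, measured in primary mouse OPCs (oligodendrocyte precursor cells), dividing glia from which the myelin-forming cells of the brain arise. The genes were chosen by name for their step in the pathway, with earlier results of these data known. All 39 have a row among the 48795 gene rows of the counts table. They fall into 14 steps of 2 to 4 related genes each, from the G protein subunits to the NFAT transcription factors. RNA was sequenced from primary cells of wild-type CD-1 mouse pups of postnatal days 4 to 7. The 4 control libraries (controls 1 to 4) received no treatment, and the 3 PE libraries (PE 2 to 4) were treated for 1 hour with 20 µM phenylephrine, which activates α1-adrenergic receptors. Libraries with the same number share a code in their titles and are called a culture here, so cultures 2, 3 and 4 hold 1 control and 1 PE library each and culture 1 holds a control alone. No transgene or deletion was labelled for either group. The labels name no vehicle, do not say whether pups were pooled, and do not say that the cultures were grown separately, so each p-value reflects only how far these libraries spread, which may be technical.

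An α1-adrenergic receptor bound to its agonist activates G proteins of the Gq class, which switch on phospholipase C beta. That enzyme splits a membrane lipid into IP3, which opens calcium channels of the endoplasmic reticulum, and diacylglycerol, which with calcium activates protein kinase C. When the store empties, STIM proteins in its membrane open Orai channels at the cell surface, and pumps return calcium to the store or to the outside. Calcium-loaded calmodulin activates CaM kinase II and calcineurin, and calcineurin removes phosphate from NFAT factors, which then enter the nucleus. Most of these steps act on proteins already present, so transcript levels show which related gene is most abundant as RNA. They do not show how active a step is, which protein supplies it, or which cells of the culture hold the RNA.

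The libraries held 12837463 to 17962339 counts. Between the control and PE libraries of cultures 2, 3 and 4 the deviations from the group means correlated at 0.67 to 0.79 across genes, and the first principal component, with 65.1% of the variance, set cultures 1 and 2 apart from cultures 3 and 4. All 10 OPC markers were measured, and their summed level was 8142 to 9936 TPM in controls (a level per length of transcript, scaled to the same total in each library) and 7585 to 9275 in PE. Within cultures 2, 3 and 4 this sum went from 9444 to 9275, from 8580 to 8368 and from 8142 to 7585 TPM with PE. The microglia sum was higher with PE in each pair, and the other marker sums had mixed directions. These sums were not tested. In the edgeR test of phenylephrine described below, 1 OPC marker and 1 neuron marker passed, and 0 of the other lists. Markers of mature oligodendrocytes summed to 1242 to 3872 TPM in controls and 1284 to 2335 in PE, those of astrocytes to 866.5 to 1377 and 863.8 to 1405, and those of mural and leptomeningeal cells to 151.9 to 213.4 and 179.5 to 221. Cspg4 is on both the OPC and the mural list, and without it the mural sum was 50.06 to 91.27 TPM in controls and 48.12 to 97.01 in PE. The OPC sum includes Gpr17, a gene of precursors committed to differentiate, which stood at 3307, 2348, 679 and 497 TPM in controls 1 to 4, while Pdgfra, which marks uncommitted precursors, stood at 502, 754, 848 and 840.0 TPM. Without Gpr17 the OPC sum was 6629, 7096, 7901 and 7645 TPM, so its order across controls depended on that gene. Neuron markers summed to 151.7 to 399.9 TPM in controls and 160.6 to 374 in PE, with Slc17a6 and Slc17a7 below 1 TPM in every library. Microglia markers summed to 87 to 190.3 and 113.2 to 204.4 TPM, and endothelial markers to 8.127 to 21.51 and 7.077 to 27.09, with Flt1 and Ly6c1 below 1 TPM throughout.

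Of the 39 genes, 36 averaged at least 1 TPM in the controls, 23 at least 10 and 4 at least 100. The 4 most abundant were Calm2, Calm3, Atp2a2 and Gna11, and the least abundant were Plcb2 and Nfatc4. A filter on low counts kept 38 of the 39 for testing. The gene left out, Nfatc4, had 9, 2, 4 and 1 reads in controls 1 to 4 and 3, 3 and 0 in PE 2 to 4. It was thus at or under 3 reads in 5 of 7 libraries and is not compared further.

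**Figure D1:**
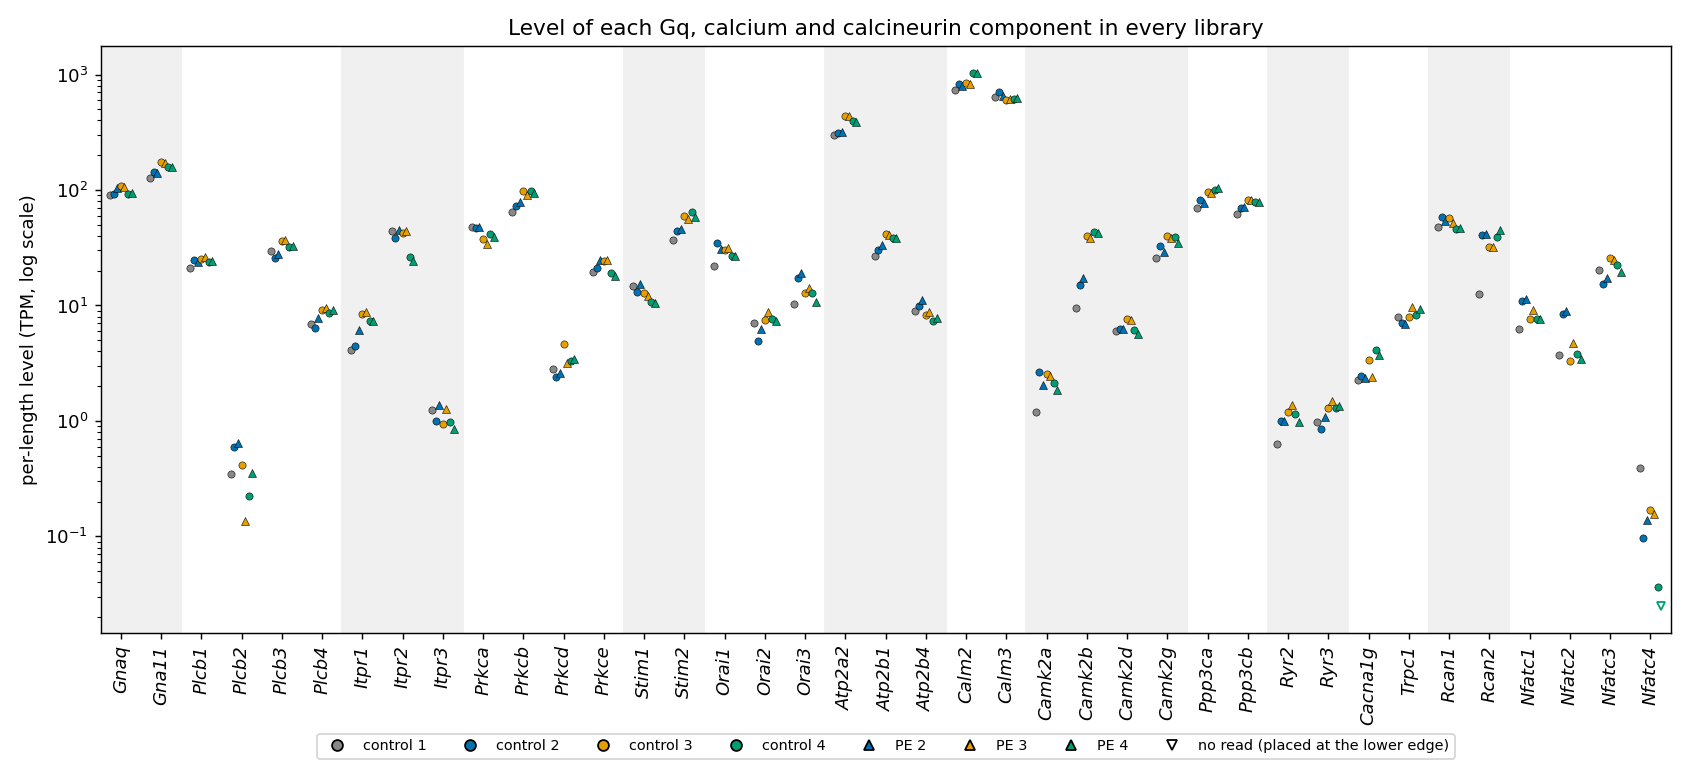
The per-length level (TPM, log axis) of all 39 genes in each of the 7 libraries is plotted, with circles for control, triangles for PE, 1 colour per culture and grey bands separating the 14 steps. The calmodulin genes and Atp2a2 sit highest, Plcb2 and Nfatc4 sit below 1 TPM in every library, and Camk2b and Rcan2 spread most widely among the well expressed genes.

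At the head of the pathway the 2 G protein alpha subunits that activate phospholipase C beta were both abundant. Gna11, which encodes Gα11, stood at 128, 143, 174 and 157 TPM in controls 1 to 4 and at 139.6, 171 and 159 TPM in PE 2 to 4. Gnaq, which encodes Gαq, stood at 90.9, 93.0, 109 and 92.6 TPM in controls and at 104, 106 and 94.9 TPM in PE. Every Gna11 value lay above every Gnaq value, and Gna11 made up 60.9% ± 1.91 (SD, n = 4) of their sum in controls. Without a correction for transcript length the share was 50.8%, so Gna11 was then barely ahead.

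Phospholipase C beta transcripts came mainly from 2 of its 4 genes. Plcb3 stood at 29.6, 25.7, 36.1 and 31.9 TPM in controls 1 to 4 and 27.9, 37.1 and 33.0 TPM in PE 2 to 4, and Plcb1 at 20.9, 25.0, 25.1 and 23.8 TPM in controls and 23.8, 26.1 and 24.1 TPM in PE. Plcb3 was ahead in all 4 controls, by 1.03 to 1.44 times, with 49.1% ± 3.08 of the summed level against 38.0% ± 3.66 for Plcb1 (SD, n = 4). In control 2 the 2 genes were nearly level, and in reads not corrected for length Plcb1 led with 48.0%. Plcb4 averaged 7.77 ± 1.34 TPM and Plcb2, known mainly from blood cells, 0.396 ± 0.156 TPM (SD, n = 4). Plcb3 shares 22 exonic bases with Ppp1r14b on the other strand, and the library kit does not mark strand. Against the wider phospholipase C family Plcb3 held 14.9% ± 2.36 of the summed level, and Plcg1, which tyrosine kinases activate, held 28.5% ± 2.38.

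Itpr2 (ENSMUSG00000030287, GRCm38 chr6:146108299-146502223, minus strand) led the IP3 receptors, the store channels that IP3 opens, by the widest margin of the early steps. It stood at 43.9, 38.6, 42.7 and 26.3 TPM in controls 1 to 4 and at 45.0, 43.8 and 24.4 TPM in PE 2 to 4. Itpr1, the form that dominates in Purkinje neurons, stood at 4.11, 4.48, 8.40 and 7.38 TPM in controls and at 6.16, 8.82 and 7.27 TPM in PE. Itpr2 therefore made up 83.7% ± 6.02 (SD, n = 4) of the controls' sum, but its share was lowest in culture 4, at 75.9%, where Itpr2 itself was lowest. Itpr3 averaged 1.04 ± 0.137 TPM. The ryanodine receptors, store channels opened by calcium itself, were near 1 TPM, with Ryr3 at 1.10 ± 0.226 and Ryr2 at 0.998 ± 0.255 (SD, n = 4). Their order was not settled, since Ryr3 led in 3 of 4 controls and Ryr2 led with 55.5% when the longest transcript was used for length. Ryr3 also shares 916 exonic bases with Aven on the other strand.

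Among the 4 protein kinase C genes of the set, Prkcb led and Prkca was next. Prkcb stood at 64.1, 73.3, 98.0 and 97.2 TPM in controls 1 to 4 and at 78.0, 90.6 and 93.5 TPM in PE 2 to 4, and Prkca at 47.9, 46.8, 37.9 and 41.2 TPM in controls and 47.8, 34.4 and 38.9 TPM in PE. Both encode forms that need calcium and diacylglycerol, and the ranges of the 2 genes did not overlap. Prkcb made up 54.7% ± 6.27 of the summed level and Prkca 29.2% ± 5.89, while Prkce and Prkcd, which need diacylglycerol alone, made up 14.0% ± 1.36 and 2.16% ± 0.474 (SD, n = 4). When all 9 protein kinase C genes were counted, Prkcq, another form that needs only diacylglycerol, held 41.3% and 33.7% of the sum in controls 1 and 2 but 17.1% and 17.6% in controls 3 and 4. Prkcb held 17.2% and 21.6% in controls 1 and 2 and 30.4% and 31.5% in controls 3 and 4, so which of the 2 led depended on the culture. Prkci, outside the set, held 16.9%, 18.3%, 24.4% and 23.8% in controls 1 to 4. That was above Prkca in each control and above Prkcq in controls 3 and 4. Prkca shares 30 exonic bases with Apoh on the other strand.

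Stim2 and Orai1 led the transcripts of store-operated entry. Stim2, the sensor that responds to small losses of store calcium, stood at 37.1, 44.2, 60.1 and 64.3 TPM in controls 1 to 4 and at 45.5, 56.5 and 58.9 TPM in PE 2 to 4, and Stim1 at 14.8, 13.1, 12.8 and 10.7 TPM in controls and 15.4, 12.1 and 10.6 TPM in PE. Stim2 exceeded Stim1 by 2.52 to 6.03 times within a control, with 79.3% ± 6.21 of their sum (SD, n = 4). Its share was 71.6% in control 1 and 85.8% in control 4. Orai1, the pore of the entry channel, stood at 21.9, 35.1, 30.3 and 26.8 TPM in controls and 30.7, 31.3 and 26.9 TPM in PE, which was 58.4% ± 2.55 of the Orai sum, with Orai3 at 27.2% ± 2.18 and Orai2 at 14.4% ± 4.09. No Orai3 or Orai2 library reached the lowest Orai1 library, since Orai3 peaked at 19.1 TPM in PE 2.

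The other surface channels of the set were less abundant. Trpc1, a subunit of nonselective cation channels, averaged 7.80 ± 0.501 TPM and Cacna1g, a pore subunit of T-type voltage-gated calcium channels, 3.05 ± 0.847 TPM (SD, n = 4). Among the 3 T-type genes Cacna1g held 10.5% ± 1.49 of the sum and Cacna1h, picked out after its values were seen, held 88.8% ± 1.39. Of the pumps, Atp2a2, which encodes the SERCA2 pump that refills the store, stood at 301, 311, 435 and 392 TPM in controls 1 to 4 and at 319.7, 433 and 386 TPM in PE 2 to 4. It made up 89.3% ± 0.459 of the sum with the plasma membrane pump genes Atp2b1 and Atp2b4, at 34.3 ± 7.15 and 8.64 ± 1.08 TPM. This share varied least of the 14 steps.

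The calmodulin genes of the set, Calm2 and Calm3, encode the same protein of 149 residues. The coding bases 61 to 120 of both genes are shown because their base differences are what lets reads be told apart although the proteins are identical, and capitals mark the 10 positions of this window at which they differ (GENCODE M21 transcripts on GRCm38; Calm2 lies on chromosome 17 and Calm3 on 7).
Calm2: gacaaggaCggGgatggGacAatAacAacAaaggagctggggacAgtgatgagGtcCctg
Calm3: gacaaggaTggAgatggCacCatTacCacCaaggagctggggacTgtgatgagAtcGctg
Calm2 and Calm3 differ at 78 of 450 coding bases, are 82.7% identical, and share no identical run longer than 17 bases, so a longer read within coding sequence matches only 1 of these 2 genes without a mismatch. How reads that match several places, such as calmodulin pseudogenes, were treated is not given in the sources used here, and the values of these genes are less certain for that reason. Calm2 stood at 728, 822, 838 and 1031 TPM in controls 1 to 4 and at 791, 823 and 1039 TPM in PE 2 to 4. Calm3 stood at 639.9, 711, 599 and 612 TPM in controls and at 656, 616 and 624 TPM in PE. Every Calm2 library lay above every Calm3 library per length, with 57.0% ± 4.48 (SD, n = 4) of the pair's sum, and without length correction Calm3 led with 55.4%.

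CaM kinase II and the ryanodine receptors were the 2 steps whose leading gene differed between controls. Camk2g stood at 25.6, 32.5, 39.7 and 39.1 TPM in controls 1 to 4 and at 29.2, 38.1 and 35.1 TPM in PE 2 to 4. Camk2b stood at 9.48, 15.0, 39.6 and 43.2 TPM in controls and at 17.3, 38.3 and 42.5 TPM in PE. Camk2g was ahead by 2.70 times in control 1, the 2 genes were level in control 3 (44.4% and 44.3% of the step), and Camk2b was ahead in control 4 (47.7% against 43.2%). Camk2d averaged 6.50 ± 0.742 TPM and Camk2a, the form that dominates in forebrain neurons, 2.14 ± 0.667 TPM (SD, n = 4). With the longest transcript as length the mean shares were 41.7% for Camk2g, 36.7% for Camk2b and 19.4% for Camk2d.

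The 2 catalytic subunits of calcineurin were present at similar levels. Ppp3ca stood at 70.5, 81.2, 95.8 and 99.8 TPM in controls 1 to 4 and at 77.4, 94.7 and 103 TPM in PE 2 to 4, and Ppp3cb at 62.1, 70.4, 82.7 and 79.0 TPM in controls and 71.4, 82.5 and 78.5 TPM in PE. Ppp3ca was ahead in all 4 controls by 1.14 to 1.26 times, although the libraries of the 2 genes overlapped across cultures. Its share of their sum was 54.1% ± 1.19 (SD, n = 4). When Ppp3cc was counted, that gene held 14.1% ± 3.49 of the catalytic total. Ppp3r1, the regulatory subunit that binds calcium, stood at 193.9 ± 12.3 TPM.

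The calcineurin regulators Rcan1 and Rcan2 encode proteins that bind calcineurin and restrain it, and Rcan1 transcripts from an internal start are a textbook target of NFAT, which makes them a common readout of the pathway. Rcan1 is ENSMUSG00000022951, GRCm38 chr16:92391953-92470867, minus strand. The window around its internal start is printed because of this role, with capitals marking each GGAAA, the core of NFAT sites, on either strand (TTTCC on the printed strand; the matches do not overlap). The window runs from 250 bases before to 50 after the start (RefSeq, GRCm38.p6, chr16:92400029-92400328, minus strand).
Rcan1: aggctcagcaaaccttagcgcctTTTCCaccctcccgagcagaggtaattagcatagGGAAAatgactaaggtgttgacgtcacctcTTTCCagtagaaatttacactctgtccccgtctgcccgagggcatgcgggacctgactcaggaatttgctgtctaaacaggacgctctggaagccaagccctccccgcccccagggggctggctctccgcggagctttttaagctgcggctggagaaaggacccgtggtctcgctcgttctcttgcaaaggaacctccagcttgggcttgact
It holds 3 matches, and the window at the upstream start of Rcan1 (chr16:92466120-92466419, minus strand) holds 0. Of 32851 such RefSeq windows 61.3% hold at least 1 match and 9.42% hold 3 or more, so the letters alone are common. A match is not a measured site, and the gene-level counts do not separate transcripts of the 2 starts. Rcan1 as a whole stood at 47.5, 58.9, 57.2 and 46.2 TPM in controls 1 to 4 and at 53.9, 51.5 and 47.1 TPM in PE 2 to 4. Rcan2 stood at 12.5, 40.5, 32.4 and 38.8 TPM in controls and at 41.6, 32.0 and 45.2 TPM in PE. Rcan2 was far lower in control 1 than in any other library, and the Rcan1 share of the pair was 79.2% there against 54.3% to 63.9% in controls 2 to 4. Rcan3, outside the set, held 26.5% ± 5.06 of the 3 genes' sum (SD, n = 4).

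Nfatc3 led the NFAT factors that calcineurin activates. It stood at 20.5, 15.3, 25.7 and 22.2 TPM in controls 1 to 4 and at 17.3, 24.7 and 19.5 TPM in PE 2 to 4. Nfatc1 stood at 6.27, 11.0, 7.65 and 7.63 TPM in controls and at 11.4, 9.08 and 7.62 TPM in PE. Nfatc2 stood at 3.75, 8.46, 3.33 and 3.77 TPM in controls and at 8.96, 4.71 and 3.41 TPM in PE. All Nfatc3 values lay above all values of the other factors, and its share was 61.5% ± 11.9 (SD, n = 4). In culture 2 Nfatc3 was lowest and Nfatc1 and Nfatc2 were highest, which brought the Nfatc3 share down to 43.9%. Nfatc3 shares 219 exonic bases with Esrp2 on the other strand, a gene with 255 reads over all libraries.

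**Figure D2:**
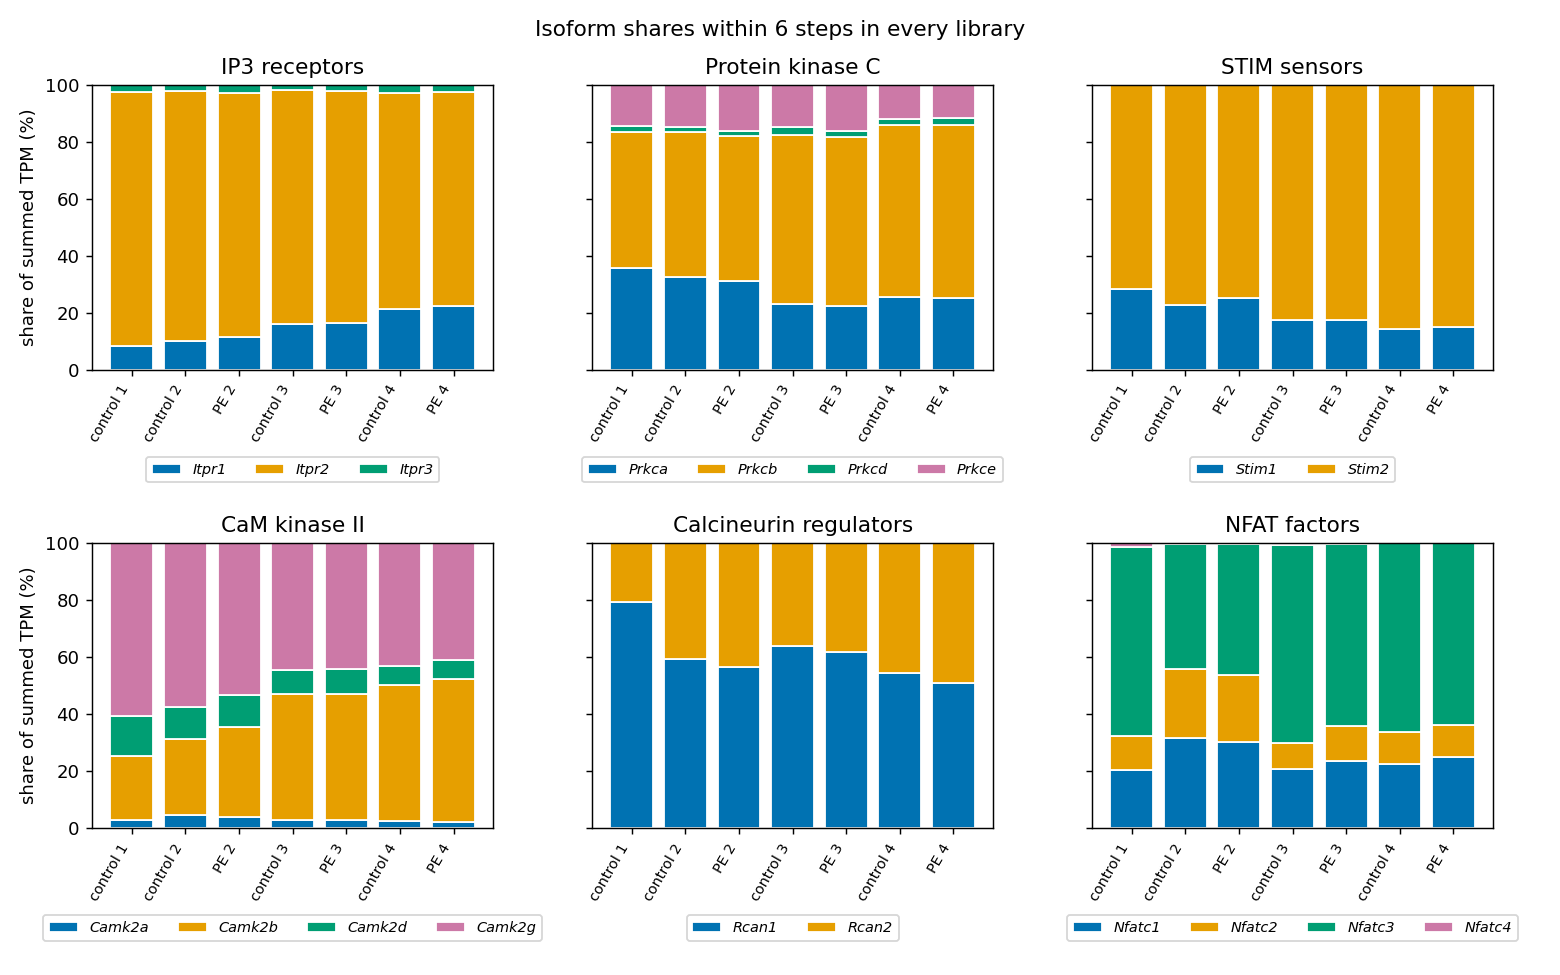
The share of each gene in the summed TPM of its step is drawn as stacked bars for 6 steps in each of the 7 libraries. Itpr2, Prkcb, Stim2, Rcan1 and Nfatc3 lead their steps in all 7 libraries, Camk2b is ahead of Camk2g in PE 3 and in both libraries of culture 4, and bars of the same culture resemble each other.

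Levels across cultures differed for most of the set. With edgeR's quasi-likelihood F test of all culture terms at a Benjamini-Hochberg adjusted p of 0.05, 31 of 38 tested genes (81.6%) differed between cultures, where 68.3% of all 15934 tested genes did. By DESeq2's likelihood ratio test the figures were 20 of 38 (52.6%) and 45.1%. The 7 genes not called by edgeR were Gnaq, Plcb1, Plcb2, Itpr3, Prkcd, Ryr3 and Trpc1. The differences were mostly small, with a median range between the lowest and the highest culture of 1.45-fold in the set and 1.53-fold over all genes. In the set 4 genes (10.5%) were called and ranged over more than 2-fold, against 24.6% of all genes. In bulk RNA, fewer cells of a type and less RNA per cell cannot be told apart.

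Camk2b (ENSMUSG00000057897, GRCm38 chr11:5969644-6066362, minus strand) had the largest range of the set, 4.50-fold between cultures (adjusted p = 2.83e-11, edgeR). It was lowest in control 1 and highest in culture 4, while summed mature oligodendrocyte markers were 3872, 2363, 1950 and 1242 TPM in controls 1 to 4 and summed neuron markers were 221.5, 399.9, 169.7 and 151.7 TPM. Culture 1 is a single library, and without it the Camk2b range was 2.66-fold (adjusted p = 4.77e-10, edgeR). Rcan2 (ENSMUSG00000039601, GRCm38 chr17:43801351-44039516, plus strand) ranged over 3.28-fold (adjusted p = 4.34e-08, edgeR), with the single library of culture 1 low and all others between 32.0 and 45.2 TPM, and without that library the range was 1.34-fold (adjusted p = 0.000644). Nfatc2 (ENSMUSG00000027544, GRCm38 chr2:168476410-168601657, minus strand) ranged over 2.40-fold (adjusted p = 1.81e-06, edgeR), with both libraries of culture 2 at least 8.46 TPM and all others at most 4.71 TPM, and without culture 2 the range was 1.11-fold (adjusted p = 0.654). Culture 2 also had the highest summed neuron markers (399.9 and 374 TPM), astrocyte markers (1377 and 1405 TPM) and endothelial markers (21.51 and 27.09 TPM). Single genes carried much of these sums, with Nefm at 182 and 157 TPM and Gfap at 482 and 479 TPM in culture 2. Without Gfap the astrocyte sum was 895.4 and 926.3 TPM in culture 2 and reached 885.3 TPM in culture 3. Without Kdr the endothelial sum was 12.22 and 13.35 TPM in culture 2 and 11.42 TPM in control 1. Among controls, the neuron markers Rbfox3, Syt1, Stmn2, Slc17a7, Gad2 and Syn1 were not highest in control 2. Neither were the astrocyte markers Aldh1l1, Slc1a3, Slc1a2, Aldoc, Gja1 and Sox9. Camk2a ranged over 2.18-fold (adjusted p = 0.0176, edgeR) at levels of 1.19 to 2.68 TPM, with the low value in control 1 alone. Without that library its range was 1.21-fold (adjusted p = 0.424), and DESeq2 did not call it. The part of other cell types or of maturation in these culture differences was not tested.

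In 20 of 38 genes (52.6%) both controls 3 and 4 were above both controls 1 and 2, where 34.6% of all genes with a known length were, and in 5 (13.2%) both were below, where 31.8% of all genes were. Control 1 was the lowest of the 4 controls for 21 genes (55.3%, against 30.8% of all genes), and control 3 was the highest for 17 (44.7%, against 25.1%). These shares were not tested against each other. Stim2 (1.70-fold range, adjusted p = 1.85e-06, edgeR), Prkcb (1.51-fold, 6.19e-06), Atp2a2 (1.41-fold, 5.59e-07) and Itpr1 (1.95-fold, 1.64e-05) were among those higher in cultures 3 and 4. Stim1 (1.40-fold, adjusted p = 0.00169, edgeR) and Prkca (1.33-fold, 7.74e-05) were higher in cultures 1 and 2. For Stim1 the gap was small, with 13.05 TPM in control 2 and 12.81 TPM in control 3. The F test asks for any difference between cultures, so these directions rest on the order of the levels and were not tested. Itpr2 (1.75-fold, adjusted p = 1.74e-07, edgeR) differed in another way, with culture 4 alone low at 26.3 and 24.4 TPM against 38.6 to 45.0 TPM elsewhere, and without culture 4 its range was 1.10-fold (adjusted p = 0.245). Summed astrocyte markers were also lowest in culture 4, at 866.5 and 863.8 TPM against 988.3 to 1405 TPM elsewhere. Slc1a3, Slc1a2 and Sox9 were not lowest there, and a link to Itpr2 was not tested. Gnaq was the steadiest, with a range of 1.14-fold (adjusted p = 0.0562, edgeR). Fits with a culture left out estimate the spread anew from fewer libraries, so their p-values are not comparable with the main fit. Without culture 2 Gnaq passed at the same 1.14-fold range. When each culture was left out in turn, 17 of the 31 culture calls held each time. The calls of Orai1, Camk2a and Ryr2 (1.24-fold, adjusted p = 0.200, edgeR) were lost without culture 1, those of Plcb4, Orai2, Orai3, Atp2b4, Nfatc1 and Nfatc2 without culture 2, those of Calm3 and Camk2d without culture 3, and those of Itpr2, Prkce and Cacna1g without culture 4. Another 5 genes (Gnaq, Plcb1, Prkcd, Ryr3 and Trpc1) passed in at least 1 of these fits.

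**Figure D3:**
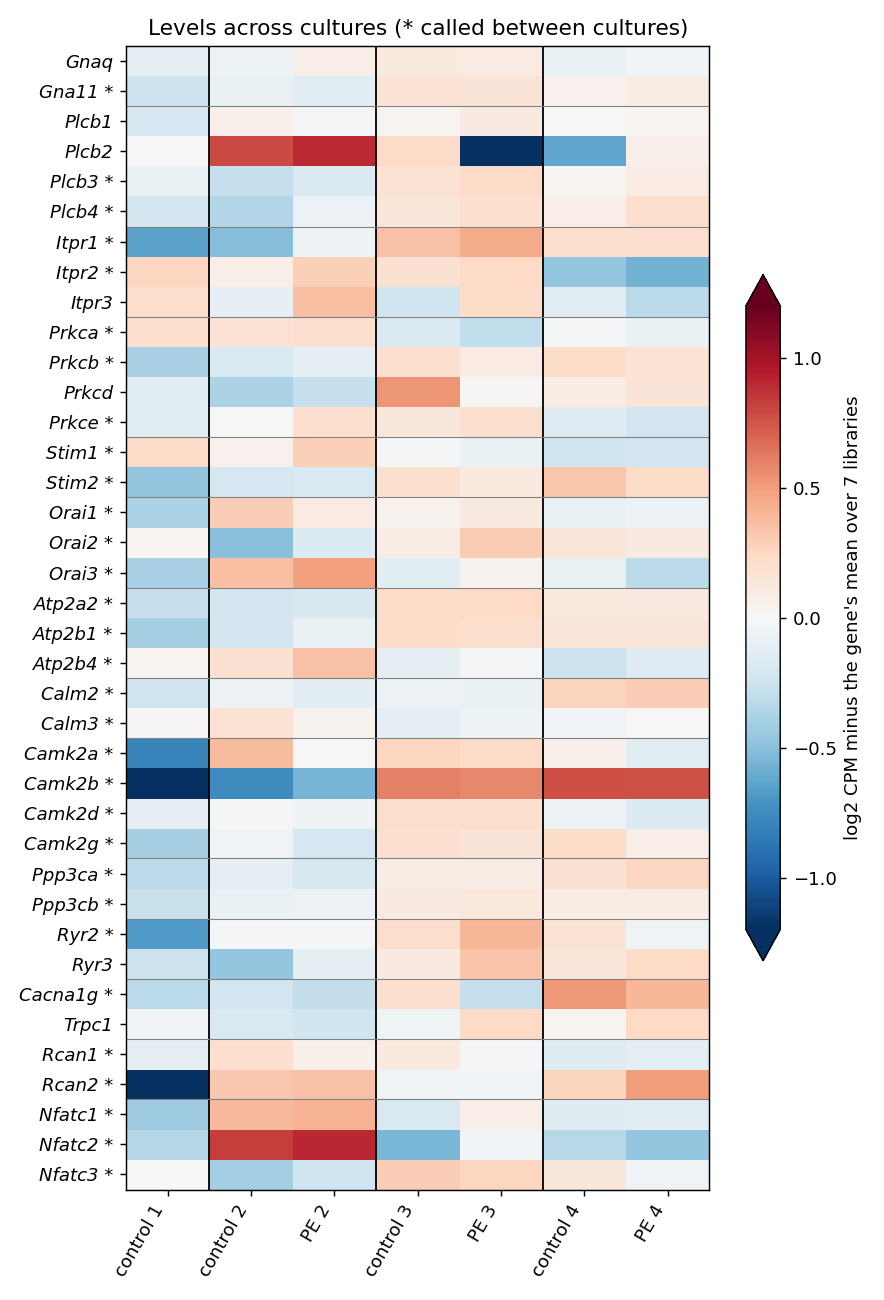
Each row is 1 of the 38 tested genes and each column a library, and the colour is log2 CPM minus the gene's mean over the 7 libraries, with lines between cultures and an asterisk where the edgeR culture test passed. Camk2b runs from low in culture 1 to high in culture 4, Rcan2 is low only in control 1, Nfatc2 is high in both libraries of culture 2, and the 2 libraries of a culture mostly share their colour.

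Against these culture differences, 1 hour of phenylephrine left no detected change in any member. In the edgeR fit with the culture as a block, 0 of 38 genes passed an adjusted p of 0.05, where 0.54% of all tested genes (86) did, and 0 of 38 had an unadjusted p under 0.05, where 5.76% of all genes did. DESeq2 with the same block called 0 members too. The median log2 change was 0.009 in the set and -0.001 over all genes, and the median size of the change was 0.058 and 0.062. Of the 38 genes, 21 were above 0 and 17 below. For 11 of them (28.9%) the 3 pairs had the same sign, against 25.4% of all genes, and for 0 did the control and PE libraries separate, against 1.26%.

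The data also bound how large a change could have been missed. The 95% interval of the change lay within 1.5-fold in either direction for 36 of 38 genes (94.7%), where 79% of all tested genes had so narrow an interval. The exceptions were Plcb2 and Itpr3, both at or below about 1 TPM in controls. In the single pairs the ratio stayed within 1.5-fold in all 3 for 37 of 38 genes (97.4%), with Plcb2 as the exception, against 86% of all genes. These intervals borrow their spread from all genes, and they do not speak of calcium flux, phosphorylation or protein.

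At the receptor end of the pathway, Gnaq changed by 0.06 ± 0.05 (log2 PE over control ± SE; 95% interval -0.04 to 0.16) and Gna11 by -0.01 ± 0.04 (-0.10 to 0.08). Plcb3 was higher in all 3 PE libraries than in their partners, by 0.06 to 0.11 on the log2 scale, with a fitted value of 0.07 ± 0.06 (-0.04 to 0.19; adjusted p = 0.978, edgeR). Itpr2 stood at 0.06 ± 0.05 (-0.06 to 0.17), with log2 ratios of 0.21, 0.05 and -0.09 in cultures 2, 3 and 4, so the pairs did not share a sign. Itpr1 had log2 ratios of 0.44, 0.09 and -0.01, and its 0.15 ± 0.08 (-0.02 to 0.33; adjusted p = 0.914, edgeR) came mostly from culture 2. Prkcb was at -0.02 ± 0.05 (-0.12 to 0.08) and Stim2 at -0.06 ± 0.05 (-0.17 to 0.06).

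Further down, Camk2g had the smallest p of the set. Its log2 ratios were -0.17, -0.04 and -0.14 in cultures 2, 3 and 4 and its fitted change -0.12 ± 0.06 (unadjusted p = 0.0552, adjusted p = 0.887, edgeR). Rcan1, the readout of calcineurin named above, had log2 ratios of -0.14, -0.13 and 0.04 and a fitted change of -0.07 ± 0.07 (95% interval -0.21 to 0.06; adjusted p = 0.978, edgeR). No increase of Rcan1 was thus detected at 1 hour in the summed count of both starts. Ppp3cb was the closest to no change in single pairs, with log2 ratios of 0.01, 0.02 and 0.00 and an interval of -0.08 to 0.10. The ends of the range were Cacna1g at -0.21 ± 0.13 (-0.49 to 0.07) and Itpr3 at 0.23 ± 0.23 (-0.24 to 0.71). For Cacna1g all 3 pairs were below 0, and for Itpr3 culture 4 went against cultures 2 and 3. Cacna1h, the more abundant T-type gene outside the set, was also lower in all 3 pairs, by -0.19, -0.20 and -0.07. Its fitted change was -0.152 (95% interval -0.268 to -0.035; adjusted p = 0.608, edgeR), and it was picked out after its values were seen.

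**Figure D4:**
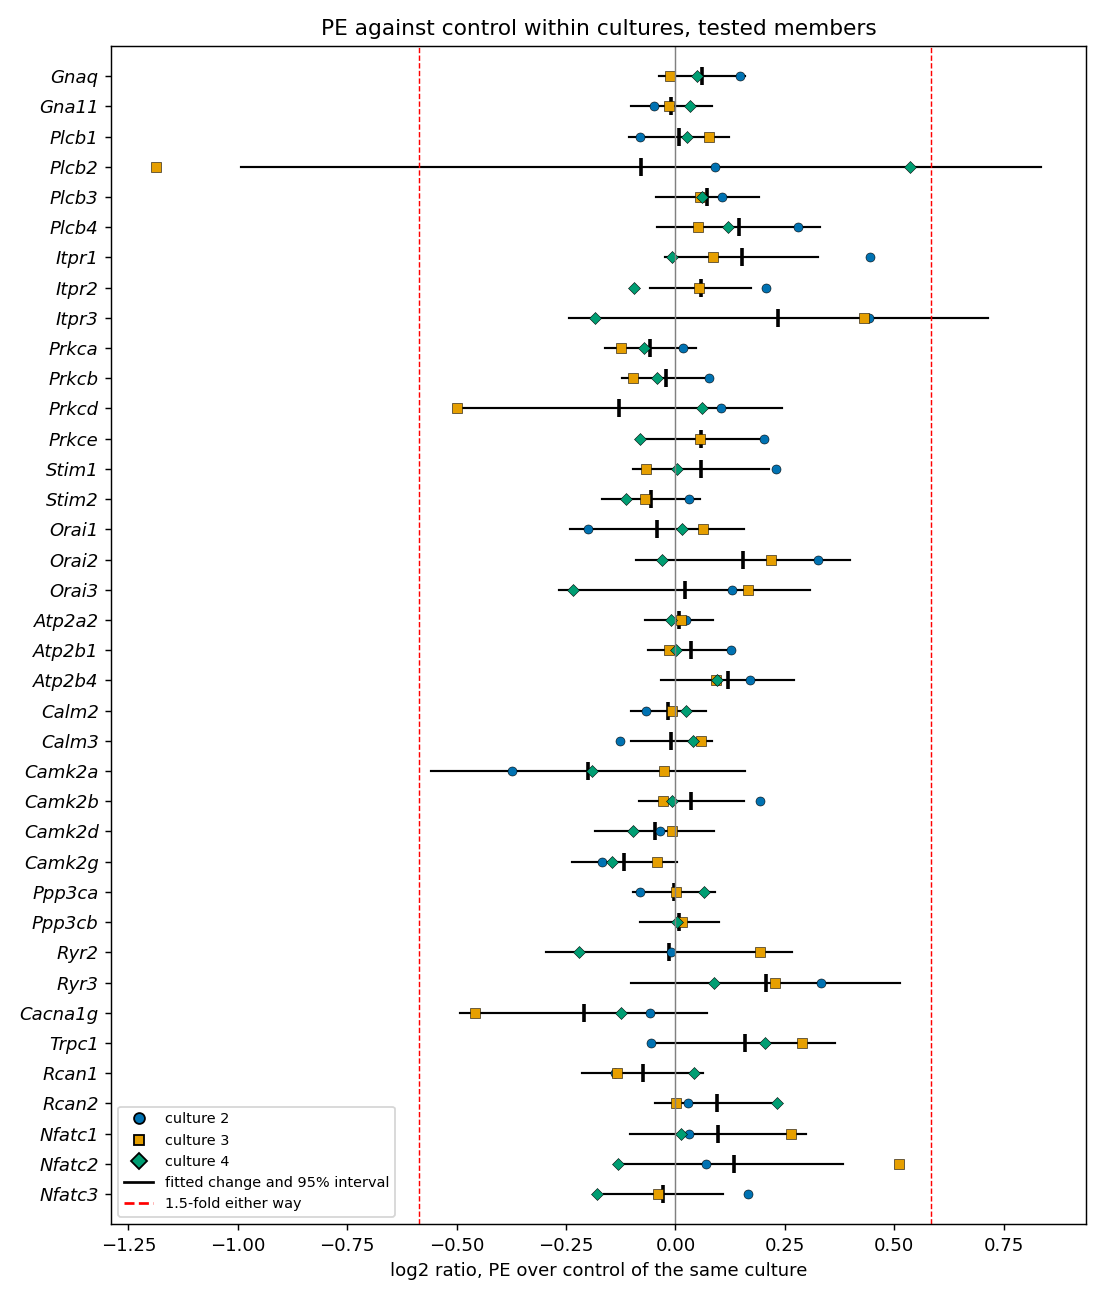
The log2 ratio of PE over control is plotted for the 38 tested genes, with 1 symbol per culture, a vertical tick for the fitted change, a bar for its 95% interval and dashed lines at 1.5-fold either way. Every interval crosses 0, those of Plcb2 and Itpr3 alone reach past a dashed line, and Plcb2 in culture 3 is the single pair ratio outside the lines.

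The rest of the pathway was taken from 12 lists of 161 further genes, of which 160 had a row and 143 were tested. None was higher or lower at an adjusted p of 0.05 by edgeR (0 in each direction), with 5 higher and 3 lower at an unadjusted p under 0.05 (5.59%, against 5.76% of all genes), and 110 differed between cultures (76.9%, against 68.3%). Their median log2 change was 0.007. The receptors of the agonist were low, with Adra1a between 0.408 and 1.03 TPM, Adra1b between 2.48 and 4.33 TPM and Adra1d between 1.96 and 14.8 TPM in controls. Adra1d ranged over 6.22-fold between cultures (adjusted p = 7.27e-07, edgeR), with 14.8 and 14.3 TPM in the 2 libraries of culture 2 and at most 5.11 TPM in the others, and without culture 2 the range was 2.15-fold. Among 20 Gq-coupled receptors the most abundant was Ednrb, the endothelin B receptor, at 591.8 ± 202.7 TPM (SD, n = 4), above the thrombin receptor gene F2r at 177.4 ± 26.2 TPM and the glutamate receptor gene Grm5 at 49.1 ± 19.5 TPM. Ednrb was higher in cultures 1 and 2 (741 and 787 TPM in controls) than in cultures 3 and 4 (375 and 465 TPM), a 2.13-fold range (adjusted p = 5.47e-11, edgeR), and Grm5 went the other way over 2.85-fold (adjusted p = 9.47e-10), or 1.55-fold without culture 1. The smallest adjusted p for phenylephrine in these lists was 0.257, for Itpkc, a kinase that phosphorylates IP3, with 12.1, 29.1, 7.75 and 7.14 TPM in controls 1 to 4 and 32.0, 10.9 and 10.8 TPM in PE 2 to 4. It was higher in all 3 pairs, by 0.13, 0.51 and 0.60 on the log2 scale, and picked out after its values were seen. Among the protein kinase C substrates, Marcksl1 and Marcks were the most abundant at 1176 ± 187 and 1123 ± 229 TPM, and each changed by 0.04 ± 0.04 on the log2 scale with phenylephrine.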

How the data were processed

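The submitters' processing notes name bcl2fastq 2.17, STAR, HTSeq and the builds GRCm38 and mm10. The deposited table holds raw counts per Ensembl gene made by the authors, with 1 column per library, 48349 of 48795 identifiers matching a symbol and no column left unmapped (0). For the counting, the annotation release, strand setting and filters were not given in the sources used here. The kits were SMART-Seq v4 and Nextera XT, per the labels' protocols; they do not mark strand, and amplified reads are not independent molecules. The shared protocol text also describes tamoxifen, viral injection and immunoprecipitation from cortex, and whether these applied to the cultured cells is not stated.

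Groups and numbers came from the sample titles. edgeR 4.0.16 in R 4.3.3 was run with TMM, filterByExpr (minimum count 10, minimum total 15; 15934 genes kept) and the two-sided quasi-likelihood F test, Benjamini-Hochberg adjusted over all tested genes at 0.05. Phenylephrine was tested with the number as a block, in which control 1 has no partner, and cultures by an F test of all number terms beside the treatment, which leaves few residual degrees of freedom. DESeq2 1.42.0 and limma 3.58.1 gave alternatives. The numbers were taken to pair the samples because titles share a code and deviations from group means correlated at 0.74, 0.67 and 0.79 (limit 0.1), although PE 2 also reached 0.67 with control 1. The 95% intervals use a t quantile of 2.128 and standard errors from the change and the F statistic. TPM used merged exon lengths of GENCODE M21 (GRCm38), alternatively the longest transcript or no length. Pair ratios are differences of log2 CPM with a prior count of 2. Libraries of a group differed by more than sampling noise, with a chi-square of 11.94 to 102.7 per degree of freedom. At these depths 3 counts equal 0.1696 to 0.2375 CPM, a limit of counting error only. Fits were tested on simulated counts. Marker sums without single genes, and the culture range of each gene with a culture left out, were added after the data had been seen.

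The 39 genes and all lists were chosen with earlier results of these data known. All tested members could be named, with the 3 most abundant and any called gene of each pathway list and the Adra1 genes. Cacna1h, Itpkc, Rcan3, Ppp3cc, Dgke, Homer1 and the genes with overlapping exons fall outside that rule and were named after their values were seen. RefSeq promoter windows (GRCm38.p6) had an entry for 29 of the 39 genes.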

Additional observations from a re-analysis of the deposited data

Results flagged for a closer look

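A library of the 4 controls stood apart from the other three for 2 of 38 tested genes by Dixon's criterion, the gap to the nearest neighbour over the range of the group at its 95% critical value. Chance alone marks about 1 in 20 groups. Gnaq reached 175 CPM in control 3, with the other controls at 150 to 154 CPM (gap over range 0.842), and PE 3 of the same culture was at 106 TPM against 109 TPM in control 3. Nfatc2 reached 24.0 CPM in control 2, with the others at 9.18 to 10.7 CPM (gap over range 0.899), and PE 2 of the same culture was also high, at 8.96 TPM against 8.46 TPM in control 2.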

How the results depend on the processing

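Members past the threshold for phenylephrine numbered 0 under every setting run, while the count over all genes (86) depended on the setting. Without the replicate block it was 0 by edgeR, 0 by limma-voom and 2 by DESeq2, with limma-voom and DESeq2 added after the data were seen. It was 194 without the low-count filter, 33 by DESeq2 with the block, and 52 to 254 when a replicate was left out. Pathway genes called were 1 (Itpkc) without the low-count filter and 0 to 2 when a replicate was left out (Itpkc and Dgke without replicate 2, Homer1 without replicate 4). Culture differences by DESeq2 numbered 20 of the set (31 by edgeR) and 7194 over all genes (10888). With the longest transcript the leading shares were 63.0% for Gna11, 70.7% for Prkcb, 63.0% for Stim2, 82.4% for Atp2a2, 41.7% for Camk2g, 51.8% for Ppp3ca, 44.5% for Ryr3 and 79.1% for Trpc1. Without length they were 50.8% for Gna11, 38.9% for Plcb3, 65.7% for Stim2, 48.1% for Orai1, 77.6% for Atp2a2, 44.6% for Calm2, 36.4% for Camk2g, 57.1% for Ppp3ca, 42.5% for Ryr3 and 67.4% for Trpc1. The leader changed only for Plcb3 (to Plcb1) and Calm2 (to Calm3) without length and for Ryr3 (to Ryr2) under both.

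No member was called, so the sign of a small change carries little. Without the replicate block the log2 change turned sign for 9 members, to 0.061 for Gna11, -0.005 for Itpr2, 0.077 for Prkcb, -0.010 for Stim1, 0.067 for Stim2, 0.057 for Orai1, 0.055 for Calm2, 0.087 for Ppp3ca and 0.160 for Ryr2. With a replicate left out, signs turned within these ranges: -0.032 to 0.015 for Gna11, -0.026 to 0.055 for Plcb1, -0.405 to 0.326 for Plcb2, -0.012 to 0.128 for Itpr2, -0.064 to 0.015 for Prkcb, -0.247 to 0.081 for Prkcd, -0.007 to 0.128 for Prkce, -0.026 to 0.117 for Stim1, -0.093 to 0.042 for Orai1, -0.046 to 0.146 for Orai3, -0.002 to 0.063 for Atp2b1, -0.040 to 0.014 for Calm2, -0.043 to 0.054 for Calm3, -0.012 to 0.079 for Camk2b, -0.041 to 0.039 for Ppp3ca, -0.124 to 0.099 for Ryr2, -0.018 to 0.244 for Nfatc2 and -0.106 to 0.053 for Nfatc3. The cause was not tested. The culture test without the PE libraries was not run, since it has no residual freedom. Depth limits Plcb2, Itpr3 and Nfatc4 most.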
